A study of Mus musculus with 4 samples.

Results

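The genes described here are 3 long noncoding RNAs that stay in the nucleus (Neat1, Malat1 and Kcnq1ot1) and 4 genes of RNA-binding proteins of the paraspeckle and the nuclear matrix (Sfpq, Nono, Pspc1 and Matr3). They were chosen by name. That choice, and the choice of the gene lists below, was made with earlier results of these data known. All 7 were found among the 55487 gene IDs of the deposited count table and the 19194 genes that passed the filter on low counts. They were measured by RNA sequencing in group 2 innate lymphoid cells (ILC2s), lymphocytes of barrier tissues that make type 2 cytokines, sorted from mouse colon and grown with 4 cytokines, IL-33, IL-25, IL-7 and IL-2. FK866-treated cells received for 16 h an inhibitor of NAMPT, the enzyme that recycles nicotinamide into NAD+ (n = 2 libraries), and control cells had the same cytokines without it (n = 2 libraries). Strain, age, sex and the number of animals are not given in the labels, and whether the 2 libraries of a group had separate cultures or animals behind them is not stated, so p-values reflect only how these libraries vary, and that may be technical variation.

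Paraspeckles are bodies in the nucleus built on Neat1. The gene makes a short transcript with a poly(A) tail and a long one that reads through the short one's end, and the long form is the scaffold. SFPQ, NONO and PSPC1 form the DBHS family (Drosophila behaviour, human splicing), whose members pair with each other, coat Neat1 and also act in transcription, splicing and DNA repair. SFPQ and NONO are needed to keep the long form, while paraspeckles can form without PSPC1. Malat1 lies beside Neat1 and gathers in nuclear speckles, which hold splicing factors. Kcnq1ot1 is read from an intron of Kcnq1, antisense to it, on the paternal chromosome, and silences neighbouring genes there. Matrin 3 (Matr3) is an RNA-binding protein of the nuclear matrix that interacts with SFPQ and NONO.

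The ends of Neat1 and Malat1 are shown because they set what these libraries can read. The first sequence spans the annotated end of the short Neat1 transcript (GENCODE M21, chr19:5842267-5842346, minus strand), with the poly(A) signal in capitals. The second is the last 80 bases of the long transcript (chr19:5824708-5824787, minus strand), and the third is the matching part of Malat1 (chr19:5795922-5796081, minus strand). In these, capitals mark an A-rich tract and its reverse complement upstream (10 bases in Neat1, 9 in Malat1), parts of the triple helix that protects both 3′ ends in place of a poly(A) tail.
Neat1 short end: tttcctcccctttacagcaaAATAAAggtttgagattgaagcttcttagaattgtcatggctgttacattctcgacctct
Neat1 long end: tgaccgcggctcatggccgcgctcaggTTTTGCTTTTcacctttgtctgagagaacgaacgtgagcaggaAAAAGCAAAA
Malat1 3′ part: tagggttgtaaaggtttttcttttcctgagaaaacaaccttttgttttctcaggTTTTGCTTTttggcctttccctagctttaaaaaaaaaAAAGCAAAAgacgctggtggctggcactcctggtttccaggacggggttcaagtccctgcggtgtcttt
The lower-case stretch after the A-rich tract of Malat1 holds the tRNA-like part that RNase P cuts off. The short Neat1 transcript ends at base 3172 of the 20771 bases of the long one, so 84.7% of the long form lies past that end. The table holds 1 count per gene and library, and the 2 forms cannot be told apart in it. The cDNA kit named in the labels primes on poly(A) tails, which neither the long Neat1 form nor mature Malat1 carries, and how reads from internal A-rich tracts enter these counts was not tested.

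Library totals ranged from 27617750 to 32241615 counts with FK866 and from 32540325 to 37841233 in controls. FK866 replicate 2 had 22461 gene IDs with 10 or more counts, against 17152 in FK866 replicate 1 and 17563 and 18667 in control replicates 1 and 2. Noncoding genes held 0.844% to 0.993% of the counts with FK866 and 0.721% to 0.862% in controls. The ILC2 label was checked against 10 markers: all 10 passed the filter, with summed levels of 4566 and 3639 CPM (a count as a share of its TMM-scaled library total) with FK866 and 4156 and 3761 CPM in controls. Within that sum the markers moved apart: Rora rose, with 1185 and 1128 CPM with FK866 and 337 and 375 CPM in controls (log2 1.70, edgeR adjusted p = 0.000457), and Il13 fell (log2 -1.49, adjusted p = 0.0118). The other 8 did not pass, and 5 of the 10, Il13 among them, lay below the controls in both FK866 libraries. Markers of other cells summed to less. T cell markers (7 of 8 tested) came to 149 and 163 CPM with FK866 and 83.1 and 75.3 CPM in controls. Cd28, at 128 and 142 CPM against 63.0 and 55.4 CPM, made up most of this and rose (log2 1.19, edgeR adjusted p = 0.00243). Cd8a had 4 counts or fewer per library. Cd3g was read at 14.7 and 14.8 CPM with FK866 and 14.4 and 15.4 CPM in controls. Myeloid markers (5 of 9 tested) came to 14.3 and 12.5 CPM with FK866 and 4.79 and 5.74 CPM in controls. S100a8 had 0 counts in both FK866 libraries and 6 and 0 in controls. Cd68 made up most of the myeloid sum and rose (log2 1.41, edgeR adjusted p = 0.0155). B cell markers (4 of 6 tested) ranged from 19.5 to 25.8 CPM with FK866 and from 31.8 to 35.3 CPM in controls, and epithelial markers (5 of 8 tested) from 28.1 to 41.1 CPM with FK866 and from 42.5 to 55.8 CPM in controls, with Krt8 at 0 counts throughout. Most of the B cell sum was Cd79b, at 18.2 and 23.5 CPM with FK866 and 31.35 and 34.2 CPM in controls. Most of the epithelial sum was Epcam, at 25.1 and 36.9 CPM with FK866 and 41.3 and 54.1 CPM in controls. No other tested T cell or myeloid marker passed, nor did any B cell or epithelial one. The part of any other cell type in the results below was not tested.

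FK866 changed 4 of the 7 genes. Neat1 rose, and Sfpq, Pspc1 and Kcnq1ot1 fell, while Nono, Malat1 and Matr3 did not pass the test (quasi-likelihood F test of edgeR, with a Benjamini-Hochberg adjusted p below 0.05 needed for a call). Of all genes tested, 13.2% were called, 5.31% higher and 7.89% lower. That share takes in many weakly read genes, which are harder to call. With the stricter filter, a mean of at least 5 CPM, 1720 of 9442 genes were called higher and 1587 lower. All 7 genes passed that filter, and again 1 was called higher and 3 lower. The 2 groups did not overlap for 6 of the 7 genes, 2 with FK866 above and 4 with FK866 below, and the same held for 57.7% of all genes (28.4% above and 29.3% below), so that with 2 libraries a group the lack of overlap by itself says little. The median log2 fold change of the 7 genes was -0.34, against 0.03 over all genes. In RNA from many cells, fewer cells of a type and less RNA per cell cannot be told apart.

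**Figure D1:**
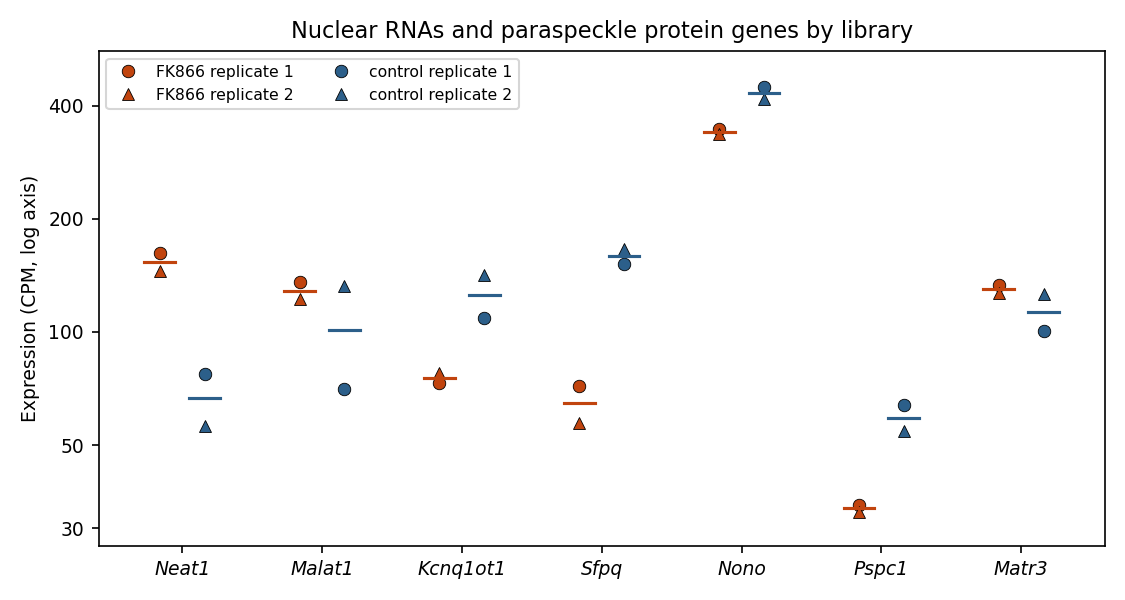
Expression of the 7 genes in CPM on a log axis, with 1 point per library (FK866 orange, control blue; circles replicate 1, triangles replicate 2) and a bar at each mean of 2. Neat1 lies higher with FK866 (145 and 163 CPM) than in controls (56.3 and 77.5 CPM), Sfpq, Pspc1 and Kcnq1ot1 lie lower, and for Malat1 the control libraries stand apart from each other.

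Neat1 (ENSMUSG00000092274, mm10 chromosome 19, 5824708 to 5845478, minus strand) stood at 163 and 145 CPM in FK866 replicates 1 and 2, against 77.5 and 56.3 CPM in control replicates 1 and 2. Both FK866 libraries lay well above both controls. The means were 153.7 ± 12.6 CPM with FK866 and 66.9 ± 14.98 CPM in controls (SD, n = 2 each). The log2 fold change was 1.20 ± 0.18 (SE), a 2.30-fold rise, with an edgeR adjusted p of 0.00492. By size it ranked 343 among the 1020 genes called higher. The counts behind these values were 4385 and 4925 with FK866 and 2816 and 1836 in controls, and they could come from either form of the transcript. Among noncoding genes tested, Neat1 was the sixth and seventh by CPM in FK866 replicates 1 and 2 and the 12th and 21st in control replicates 1 and 2. Of these 2679 noncoding genes, 51 were called higher and 50 lower, with a median log2 fold change of 0.30. Most of them were read at lower levels than Neat1, and weakly read genes are harder to call.

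Malat1 (ENSMUSG00000092341, chromosome 19, 5795690 to 5802672, minus strand), the neighbour of Neat1, did not pass the test. It had 136 and 122 CPM in FK866 replicates 1 and 2, against 70.6 and 132 CPM in control replicates 1 and 2. Control replicate 2 sat among the FK866 libraries, and control replicate 1 sat well below all 3. The log2 fold change was 0.34 ± 0.25 (SE, edgeR adjusted p = 0.429). The value turned on which control library was left out: without control replicate 2 it was 0.87, and without control replicate 1 it was -0.14. A fit with 1 library left out holds 1 library in that group and cannot measure the group's spread. Its p-values and calls, where given below, cannot be read as those of the full fit. Malat1 is therefore neither shown to change nor shown to stay level. The ratio of Neat1 to Malat1 counts, which no scaling between libraries touches, was 1.20 and 1.19 with FK866 and 1.10 and 0.425 in controls, so that control replicate 1 lay close to the FK866 libraries and control replicate 2 stood alone. A permutation of 2 libraries against 2 cannot go below an exact two-sided p of 0.333, which limits every within-library ratio given here.

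Kcnq1ot1 (ENSMUSG00000101609, chromosome 7, 143203458 to 143296549, minus strand), annotated as a single exon of 93092 bases, moved the other way from Neat1. It stood at 73.1 and 77.6 CPM in FK866 replicates 1 and 2, against 109 and 142 CPM in control replicates 1 and 2. The FK866 libraries were close together and both below the controls, which were further apart. The log2 fold change was -0.74 ± 0.16 (SE, edgeR adjusted p = 0.0201), 1.67-fold lower with FK866. Its sense partner Kcnq1, which encodes a potassium channel, shares 121 exon bases with it on the other strand and had 5 and 11 counts with FK866 and 0 in both controls, too few for the filter.

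Transcript length went with the fold changes of the series, and all 3 RNAs are long. Among the 937 protein-coding genes with the longest transcripts (6842 nt or more, mean log2 CPM above 2), the median log2 fold change was 0.23, with 190 called higher and 48 lower. Among the 937 with the shortest (up to 1492 nt) it was -0.41, with 20 called higher and 293 lower. The longest transcripts of Neat1, Malat1 and Kcnq1ot1 have 20771, 6983 and 93092 nt. With the trend of fold change on length and GC content removed, a fit that moved the median of all genes to 0.135, Neat1 stood at 0.89 (adjusted p = 0.00511) and Kcnq1ot1 at -1.02 (adjusted p = 0.0016), both still called. The trend was fitted on protein-coding genes, and lengths near or past the ends of their range were cut back. For Neat1 it took the long form, though the reads may be of the short one. It therefore cannot show whether these calls outlast a length effect. Malat1, uncalled in both fits, stood at 0.20 (adjusted p = 0.65).

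Sfpq (ENSMUSG00000028820, chromosome 4, 127021324 to 127037013, plus strand), a DBHS gene, had the largest fold change of the 7 genes. It had 71.8 and 57.4 CPM in FK866 replicates 1 and 2, against 152 and 166 CPM in control replicates 1 and 2. Even the higher FK866 value lay far below the lower control. The means were 64.6 ± 10.1 CPM with FK866 and 159.2 ± 10.1 CPM in controls (SD, n = 2 each), and the log2 fold change was -1.30 ± 0.15 (SE, edgeR adjusted p = 0.00227), 2.47-fold lower with FK866. By size it ranked 298 among the 1514 genes called lower. The annotated gene Gm12940, which shares 216 exon bases with Sfpq on the same strand and is listed by RefSeq as a synonym of it, was examined after its counts were seen. It had 70 and 118 counts with FK866 and 53 and 59 in controls (log2 0.89 ± 0.42, SE, edgeR adjusted p = 0.208), so it did not pass, and it held few reads beside the 1935 to 1952 of Sfpq with FK866 and 5422 to 5525 in controls.

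Pspc1 (ENSMUSG00000021938, chromosome 14, 56720710 to 56778316, minus strand), which encodes paraspeckle component 1, had 34.6 and 33.2 CPM in FK866 replicates 1 and 2, against 63.9 and 54.4 CPM in control replicates 1 and 2. The FK866 libraries nearly coincided and both lay below the controls. The log2 fold change was -0.80 ± 0.16 (SE, edgeR adjusted p = 0.0142), 1.74-fold lower with FK866. Without FK866 replicate 2 the call was lost (-0.75, adjusted p = 0.0656).

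Nono (ENSMUSG00000031311, chromosome X, 101429318 to 101448591, plus strand), the most abundant of the 7 genes and the usual partner of SFPQ, had 346 and 336 CPM in FK866 replicates 1 and 2, against 448 and 417 CPM in control replicates 1 and 2. The FK866 libraries again lay below the controls, by a smaller step. The log2 fold change of -0.34 ± 0.12 (SE) did not pass (edgeR adjusted p = 0.0993). Without control replicate 1 it was -0.39, as it was without control replicate 2. Nono was at -0.17 (adjusted p = 0.217) once the trend on length and GC content was taken out. Matr3 (ENSMUSG00000037236, chromosome 18, 35562138 to 35593835, plus strand) had 133 and 127 CPM in FK866 replicates 1 and 2, against 101 and 126 CPM in control replicates 1 and 2. Control replicate 2 was level with FK866 replicate 2, and the log2 fold change of 0.20 ± 0.15 (SE) did not pass (edgeR adjusted p = 0.44). Of the exon bases of Matr3, 17.3% lie in exons of another gene on the same strand, Gm28285, which had 11 to 18 counts with FK866 and 11 to 20 in controls.

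**Figure D2:**
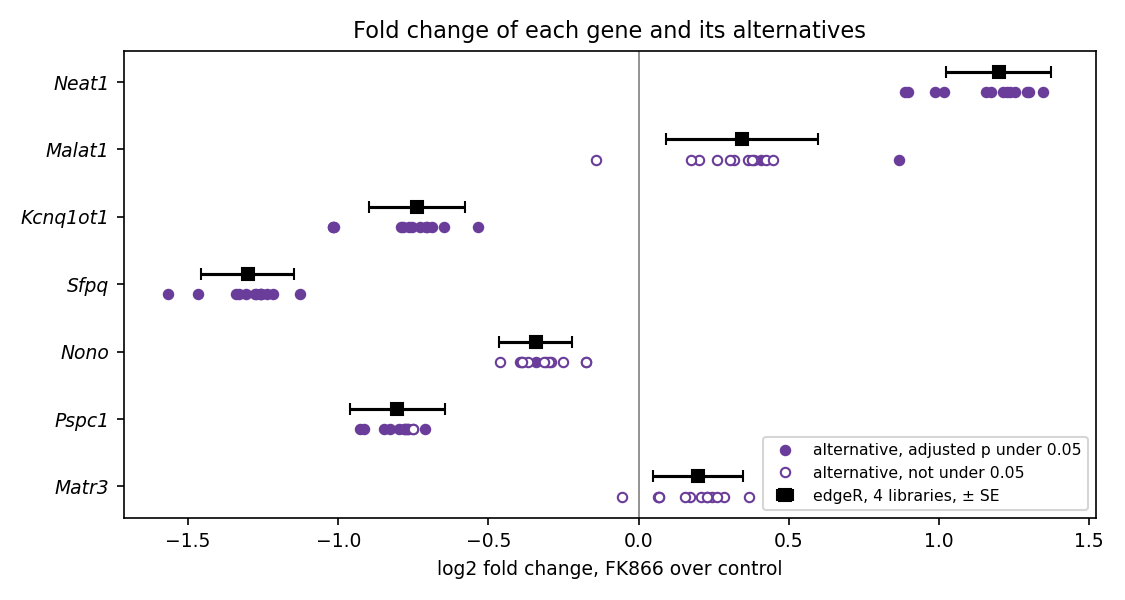
Log2 fold change (FK866 over control) of each gene with its SE (black squares) and the same value under 13 alternative settings (circles, filled where the adjusted p was under 0.05). Neat1, Sfpq, Kcnq1ot1 and Pspc1 kept direction in all 13 and were called in each that kept all libraries, while Malat1 and Matr3 each crossed 0 in 1. The circles include fits with 1 library left out, whose calls cannot be read as those of the full fit.

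The balance within the DBHS family differed between the groups along with its total. Per kilobase of exon, Nono stood at 79.2 and 76.8 CPM per kb with FK866 and 103 and 95.3 CPM per kb in controls, above Sfpq (15.1 and 12.1 with FK866, 32.1 and 35.1 in controls) and Pspc1 (6.04 and 5.80 with FK866, 11.2 and 9.496 in controls). The 3 genes together summed to 100.3 and 94.7 CPM per kb with FK866 and 145.7 and 139.8 CPM per kb in controls. Sfpq made up 15.1% and 12.8% of that sum with FK866 and 22.0% and 25.1% in controls, and Nono 78.9% and 81.1% with FK866 and 70.3% and 68.1% in controls. The size of these shares depends on the length used, here all annotated exons of a gene joined. That length is 4375 bases for Nono, 4743 for Sfpq and 5734 for Pspc1. Their longest transcripts have 2562, 3465 and 4114. In raw counts there were 0.207 and 0.171 Sfpq reads per Nono read with FK866 and 0.339 and 0.399 in controls. Neither ratio depends on the scaling of the libraries, and the groups did not overlap in them.

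Within each library, Neat1 reads were set against reads of the DBHS mRNAs. There were 2.27 and 2.52 Neat1 reads per Sfpq read in FK866 replicates 1 and 2, against 0.510 and 0.339 in control replicates 1 and 2. For Pspc1 there were 4.70 and 4.36 Neat1 reads per read with FK866, against 1.21 and 1.03 in controls. For Nono there were 0.469 and 0.431 with FK866, against 0.173 and 0.135 in controls. In each ratio the FK866 libraries lay close together and above both controls, with the smallest p that 2 against 2 allows (exact permutation p = 0.333, two-sided). That order follows from the CPM values above, with Neat1 higher and the 3 mRNAs lower in both FK866 libraries, and is not separate evidence.

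**Figure D3:**
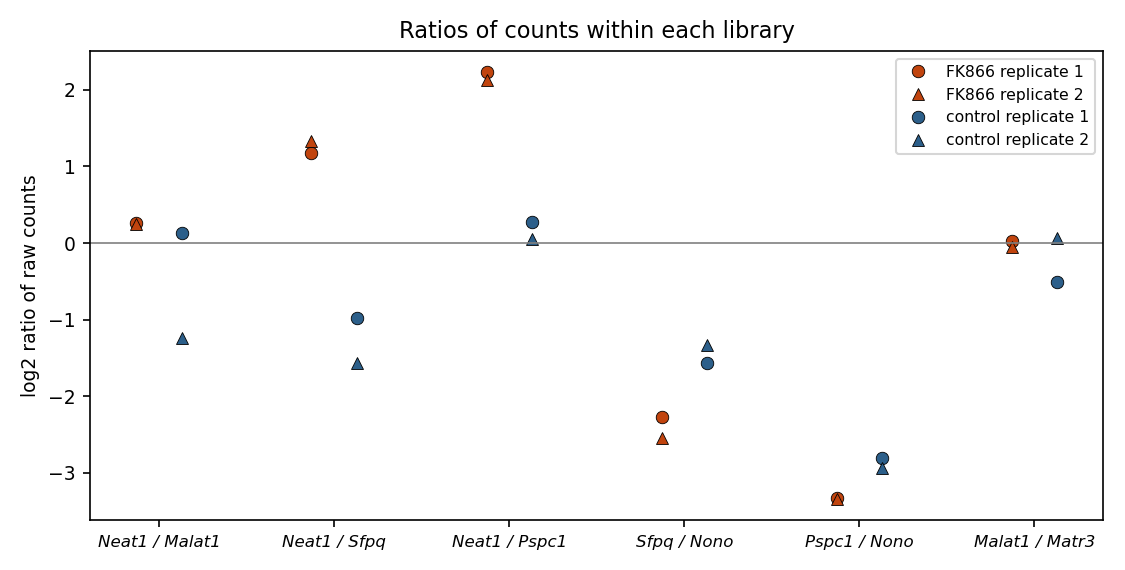
Log2 ratio of raw counts of gene pairs within each library (FK866 orange, control blue; circles replicate 1, triangles replicate 2). Neat1 to Sfpq is at 1.18 and 1.34 with FK866 and at -0.97 and -1.56 in controls, whereas Neat1 to Malat1 separates control replicate 2 (-1.23) from the other libraries.

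Per kilobase of exon, the remaining levels were lower than that of Nono. Malat1 had 19.4 and 17.5 CPM per kb with FK866 and 10.1 and 18.96 in controls, and Matr3 13.1 and 12.5 with FK866 and 9.91 and 12.4 in controls. With FK866, Malat1, Sfpq and Matr3 lay next to each other, and Sfpq and Matr3 did not differ beyond the spread of their libraries, whereas in controls Sfpq stood above both. Neat1 had 7.83 and 6.97 CPM per kb with FK866, just above Pspc1, and 3.73 and 2.71 in controls, below Pspc1. These Neat1 values divide by the whole 20.8 kb and understate the number of molecules if most are short. Kcnq1ot1 was lowest in every library, with 0.785 and 0.833 CPM per kb with FK866 and 1.17 and 1.53 in controls. These values divide by all 93092 bases of its annotated exon, and how much of that length was read was not tested. In CPM, not divided by length, Kcnq1ot1 lay above Pspc1 in every library.

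The promoters of the 3 DBHS genes and of Kcnq1ot1 are shown because Sfpq, Pspc1 and Kcnq1ot1 fell and Nono is their uncalled relative. Each runs from 250 bases before to 50 bases after the gene's start in RefSeq (GRCm38.p6), read on the gene's strand. For Nono that start lies downstream of the GENCODE start given above (101429318), and the whole window lies inside the GENCODE gene. Capitals mark matches on either strand to any of 7 short motifs, whose letters are given after the sequences. Of the 7 genes, 5 had a promoter in the reference table.
Sfpq promoter, chr4:127021051-127021350, plus strand: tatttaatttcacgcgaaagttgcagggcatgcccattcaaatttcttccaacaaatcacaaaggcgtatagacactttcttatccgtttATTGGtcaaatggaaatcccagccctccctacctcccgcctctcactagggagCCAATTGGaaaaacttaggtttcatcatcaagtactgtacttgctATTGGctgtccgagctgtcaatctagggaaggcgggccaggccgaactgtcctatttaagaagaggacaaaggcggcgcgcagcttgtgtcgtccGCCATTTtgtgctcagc
Pspc1 promoter, chr14:56778269-56778568, minus strand: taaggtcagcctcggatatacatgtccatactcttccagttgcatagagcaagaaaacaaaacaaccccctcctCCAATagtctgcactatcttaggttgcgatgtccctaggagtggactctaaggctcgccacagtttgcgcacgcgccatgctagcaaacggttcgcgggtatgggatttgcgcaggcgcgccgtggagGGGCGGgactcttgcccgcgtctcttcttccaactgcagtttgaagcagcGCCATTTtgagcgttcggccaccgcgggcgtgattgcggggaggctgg
Nono promoter, chrX:101429401-101429700, plus strand: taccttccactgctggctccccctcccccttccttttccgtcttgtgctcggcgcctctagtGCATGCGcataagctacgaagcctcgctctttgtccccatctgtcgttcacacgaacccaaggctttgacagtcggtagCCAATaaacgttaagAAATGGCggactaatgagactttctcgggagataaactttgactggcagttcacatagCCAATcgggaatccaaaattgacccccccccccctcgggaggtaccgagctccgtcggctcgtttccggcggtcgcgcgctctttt
Kcnq1ot1 promoter, chr7:143296498-143296797, minus strand: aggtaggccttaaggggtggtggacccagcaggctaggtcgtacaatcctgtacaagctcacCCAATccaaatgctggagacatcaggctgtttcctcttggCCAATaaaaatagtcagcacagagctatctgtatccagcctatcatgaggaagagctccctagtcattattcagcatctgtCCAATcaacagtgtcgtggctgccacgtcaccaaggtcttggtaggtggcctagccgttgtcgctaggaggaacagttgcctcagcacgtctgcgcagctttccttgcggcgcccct
The core of the YY1 motif, with the letters GCCATTT, was found in 4.22% of 32851 promoters of that length. It occurred once in each DBHS promoter and not in those of Malat1 or Kcnq1ot1. The CCAAT box was present in 37.4% of promoters and occurred 4 times in Sfpq (with 2 of the matches overlapping on opposite strands), 3 times in Kcnq1ot1, 2 times in Nono and 1 time in Pspc1. The GC box, GGGCGG, was in 35.7% of promoters and matched 1 time, in Pspc1. The NRF1 core, GCATGCG, was in 3.58% of promoters and matched in Nono alone of the 5 genes. The E-box with the letters CACGTG was in 7.15% of all promoters and in 0 of the 5. The E2F core, written TTCCCGC, was in 4.60% of all promoters and in 0 of the 5. The FOXO site, written GTAAACA, was in 3.65% of all promoters and in 0 of the 5. These are letter matches and not measured binding.

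Genes of 28 other paraspeckle proteins, all of which passed the filter, moved in both directions: 7 fell and 3 rose, with a median log2 fold change of -0.20 (0.03 over all genes) and 18 of 28 values below 0. Over all genes tested, 7.89% were called lower and 5.31% higher. With the stricter filter 1587 of 9442 genes were called lower and 1720 higher, and of these 28 genes 8 and 6. Among those that fell was Rbm14, whose product links subcomplexes into paraspeckles, with 56.9 and 53.1 CPM in FK866 libraries against 112 and 95.2 CPM in controls (log2 -0.91 ± 0.15, SE, edgeR adjusted p = 0.00715). Rbm12 had 19.4 and 18.6 CPM with FK866 and 35.3 and 37.7 CPM in controls (log2 -0.94). Tardbp, which encodes the RNA-binding protein TDP-43, had 115 and 99.5 CPM with FK866 and 205 and 169 CPM in controls (log2 -0.80), a call lost without FK866 replicate 2 (adjusted p = 0.0558). The largest called rise was in Ss18l1, which encodes the transcriptional activator CREST, with 11.2 and 8.62 CPM with FK866 and 2.70 and 4.05 CPM in controls (log2 1.55). The count of genes called lower was 2 without FK866 replicate 2 and 11 without FK866 replicate 1 or without control replicate 2, and the count called higher was 1 without FK866 replicate 1.

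The cleavage factor Im complex favours the short form in human cells. Of its genes, Cpsf7 rose, with 69.8 and 56.1 CPM with FK866 and 35.5 and 34.8 CPM in controls (log2 0.84 ± 0.17, SE, edgeR adjusted p = 0.0138), a call lost without FK866 replicate 1 (adjusted p = 0.137). Cpsf6, Nudt21 and Hnrnpk are of the same list but were named after its values were seen. Cpsf6 fell, with 137 and 124 CPM with FK866 and 177 and 225 CPM in controls (log2 -0.62). Nudt21 had 149 and 134 CPM with FK866 and 121 and 118 CPM in controls and did not pass (log2 0.24, adjusted p = 0.283). Hnrnpk, whose product counters that complex in human cells, had 1266 and 1143 CPM with FK866 and 1369 and 1308 CPM in controls, and it did not pass either (log2 -0.15, adjusted p = 0.445).

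Of 12 genes of nuclear speckle proteins, the bodies where Malat1 is found, 3 rose and 1 fell, and the median log2 fold change was 0.21. Over all genes tested, 5.31% were called higher and 7.89% lower. With the stricter filter 1720 of 9442 genes were called higher and 1587 lower, and of these 12 genes 5 and 1. Bclaf1 had 397 and 375 CPM with FK866 and 271 and 245 CPM in controls (log2 0.58), the related gene Thrap3 had 281 and 230 CPM with FK866 and 186 and 157 CPM in controls (0.57), and Pnn, which encodes pinin, had 146 and 130 CPM with FK866 and 96.3 and 92.6 CPM in controls (0.54). Srrm2, which encodes a scaffold protein of speckles, fell, with 304 and 289 CPM with FK866 and 438 and 452 CPM in controls (-0.58). Son, which encodes the other main scaffold, had a log2 fold change of 0.19 (adjusted p = 0.395). None of the 3 rises was called without FK866 replicate 1 (log2 0.44, 0.33 and 0.36, adjusted p of 0.158, 0.398 and 0.368 for Bclaf1, Thrap3 and Pnn) or with no filter on low counts, and the fall of Srrm2 was not called without FK866 replicate 2 (adjusted p = 0.123) or with no filter (adjusted p = 0.0562).

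**Figure D4:**
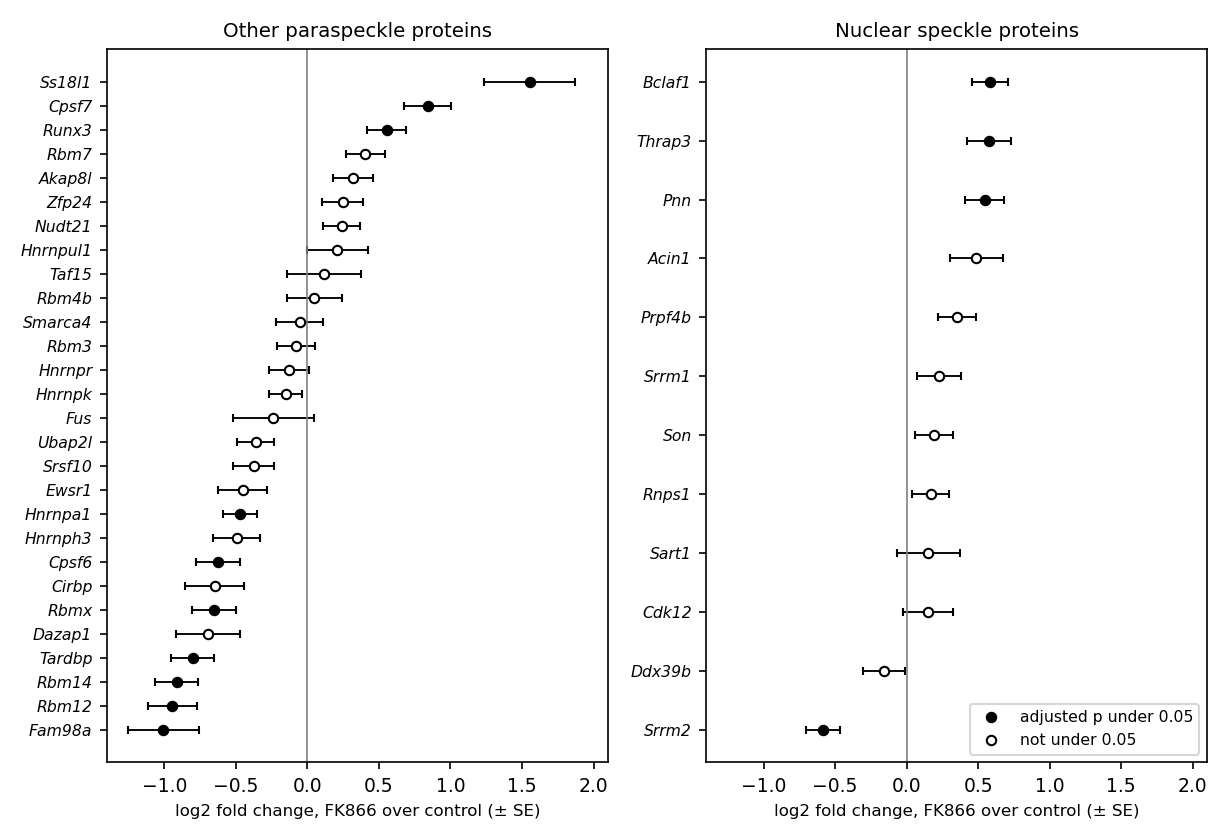
Log2 fold change (FK866 over control) with its SE for 28 genes of other paraspeckle proteins (left) and 12 genes of nuclear speckle proteins (right), ordered by value; filled points passed the adjusted p of 0.05. Of the paraspeckle genes 7 fell and 3 rose, and of the speckle genes 3 rose and 1 fell. Over all genes tested, 7.89% were called lower and 5.31% higher. With the stricter filter these were 1587 and 1720 of 9442 genes.

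Among 14 other nuclear long noncoding RNAs, 11 were tested and 0 were called by edgeR, with 1 at an unadjusted p under 0.05 and 0 called by DESeq2, and their median log2 fold change was 0.29. Xist, the RNA that coats the inactive X chromosome, had 220 and 404 CPM in FK866 replicates 1 and 2, against 162 and 345 CPM in control replicates 1 and 2. In both groups replicate 2 was well above replicate 1, and the groups overlapped (log2 0.30 ± 0.35, SE, adjusted p = 0.646). Xist was called higher by edgeR with the replicate number as a block (0.34, adjusted p = 0.014). Its log2 fold change was 0.95 without control replicate 2 and 0.58 without FK866 replicate 1. It was at -0.24 without control replicate 1, at -0.17 without FK866 replicate 2, and at 0.05 (adjusted p = 0.71) with the block once the trend on length and GC content was also taken out. Tug1 had 88.6 and 85.4 CPM with FK866 and 76.1 and 72.8 CPM in controls (log2 0.23, adjusted p = 0.323).

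Genes near the RNAs were set beside them, and beside the share of all genes called, 5.31% higher and 7.89% lower. With the stricter filter 1720 of 9442 genes were called higher and 1587 lower. In the imprinted domain of Kcnq1ot1, 9 of 14 genes were tested, of which 1 rose and 2 fell. Tnfrsf23, a decoy receptor for TRAIL, had 10.1 and 8.85 CPM with FK866 and 1.62 and 1.503 CPM in controls (log2 2.60 ± 0.31, SE, edgeR adjusted p = 0.0023). Tspan32, a tetraspanin gene, had 116 and 127 CPM with FK866 and 234 and 238 CPM in controls (log2 -0.96), and Tssc4 had 42.0 and 37.8 CPM with FK866 and 85.2 and 66.7 CPM in controls (log2 -0.93). The best known targets of Kcnq1ot1 were barely read: Cdkn1c, a cell cycle inhibitor gene, reached 0.706 CPM at most with FK866 and 0.521 CPM in controls, and Phlda2 and Slc22a18 did not pass the filter. Around Neat1 and Malat1 on chromosome 19, 14 of 15 genes were tested, of which 0 rose and 2 fell (edgeR; 1 was higher at an unadjusted p under 0.05, and 0 by DESeq2). They were the DNA polymerase subunit gene Pola2, with 51.4 and 57.2 CPM with FK866 and 87.6 and 77.9 CPM in controls (log2 -0.61), and Ehbp1l1, with 78.9 and 66.9 CPM with FK866 and 134 and 99.5 CPM in controls (log2 -0.68). Neither was called without FK866 replicate 2 (adjusted p of 0.0927 and 0.177), nor Pola2 without FK866 replicate 1 (0.0775). Frmd8, next to Neat1, had 124 and 127 CPM with FK866 and 110 and 73.5 CPM in controls (log2 0.45, adjusted p = 0.157).

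Among 8397 named genes whose log2 CPM averaged 3 or more, those whose 4 values ran closest to each RNA, by the distance between centred log2 profiles, were the following. For Neat1 they were Mtmr3 (228 and 198 CPM with FK866, 109 and 77.1 CPM in controls, distance 0.039), Fbxl12 (0.063) and the salt-inducible kinase gene Sik1 (0.070). For Kcnq1ot1 they were Fkbp3 (55.2 and 56.8 CPM with FK866, 81.2 and 106 CPM in controls, distance 0.032), Mitd1 (0.073) and Gsto1 (0.075). For Malat1 they were the RAS activator gene Sos1 (23.6 and 20.8 CPM with FK866, 12.6 and 21.6 CPM in controls, distance 0.092), Hs6st2 (0.14) and Cep290 (0.16), each lowest in control replicate 1. The likeness rests on 4 values per gene.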

How the data were processed

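The authors deposited whole-number read counts for each Ensembl gene in 4 libraries, with no normalization. The submitters' processing notes name cutadapt 1.9, HISAT2 2.2.1 and the mm10 build. Which program and annotation made the counts, and how strand and shared reads were handled, is not given in the sources used here. Per the labels' protocols, the SMART-Seq HT kit made the cDNA; it does not mark the strand, so reads of overlapping genes cannot be told apart. Names, positions, lengths and transcripts came from GENCODE M21 (GRCm38) and promoters from RefSeq.

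Genes were filtered with filterByExpr (minimum count 10, minimum total 15), scaled by TMM over the genes kept, and tested with the two-sided quasi-likelihood F test of edgeR 4.0.16 (R 4.3.3), adjusted by Benjamini-Hochberg over all 19194 genes. The SE came from the log2 fold change and F (size over root F). The test was tried on simulated counts of the FK866 and control libraries (19194 genes): it called 60 of the 100 genes given a 2-fold change and all 100 given a 4-fold change, with 6 false among 166 calls. The changed genes were drawn from those with a log2 mean CPM above 2. Variation followed the fitted trend, with libraries drawn independently, so these figures are not error rates for the real data. The libraries of a group differed by more than sampling noise (chi-square per degree of freedom 19.01 for FK866 and 35.8 for controls). Alternatives were DESeq2 1.42.0, other scalings and filters, 1 library left out, the replicate number as a block, and removal of a length and GC trend. Library totals taken before the filter were added after seeing the data. A fit with 1 library left out has 1 library in that group and no measure of the group's spread. The genes and lists were chosen with earlier results of these data known. Named list genes are up to 5 called genes with the smallest adjusted p, or, in a list with no call, the 2 of highest mean CPM; genes named outside this rule are Gm12940, the overlapping and neighbouring genes, Cpsf6, Nudt21, Hnrnpk, Son, Cdkn1c and Frmd8.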

Additional observations from a re-analysis of the deposited data

How the results depend on the processing

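Neat1 (log2 0.89 to 1.35), Sfpq (-1.57 to -1.13) and Kcnq1ot1 (-1.02 to -0.53) kept direction in all 13 alternatives. They kept their call in each alternative that kept all libraries. The alternatives reuse the same libraries and are not separate evidence. Leaving out 1 library in turn gave 0.99 to 1.35 for Neat1, -1.57 to -1.13 for Sfpq, -1.02 to -0.53 for Kcnq1ot1, -0.93 to -0.75 for Pspc1, -0.46 to -0.30 for Nono, -0.14 to 0.87 for Malat1 and -0.054 to 0.37 for Matr3; the sign of Malat1 (-0.14) and Matr3 (-0.054) turned without control replicate 1, and that of Xist without control replicate 1 (-0.24) or FK866 replicate 2 (-0.17; range -0.24 to 0.95). The cause was not tested.

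The groups share the replicate numbers 1 and 2, but no label says that these pair the samples. The difference of replicate 1 from replicate 2 correlated between the groups with r = 0.37 across 9701 genes, which are not independent. With the replicate block, Malat1 (0.41) and Nono (-0.34) were called and 2 of the 7 genes were higher; with the trend removed as well, neither was called (0.26, adjusted p = 0.21, and -0.17, adjusted p = 0.0958) and 1 was higher. With the block alone, 2197 genes rose and 3059 fell, against 1020 and 1514.

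Genes called higher over the whole table numbered 1720 with the stricter filter, 1613 (with 1372 lower) after removal of the length and GC trend, and 2658 with that and the block; leaving out 1 library gave 661 to 1457 higher and 828 to 2462 lower. Of the 7 genes, 1 to 2 were higher and 2 to 4 lower as 1 library was left out.

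Paraspeckle genes called higher numbered 6 with the stricter filter and 5 with trend and block (1 to 4 with a library left out), and lower 13 with the block and 12 with trend and block (2 to 11). Speckle genes called higher numbered 5 with the stricter filter, with the block, with the trend removed and with both, and 0 with no filter (0 to 4), and lower 0 with no filter (0 to 1). Of the other nuclear RNAs, 1 was called higher with the block, which was Xist (0.34), and 1, not Xist (0.05), with trend and block (0 to 2 higher and 0 to 1 lower with a library left out). In the Kcnq1 domain 2 rose with the stricter filter or the block and 3 with the trend removed, with or without the block. Near Neat1 and Malat1, 2 rose with the stricter filter or the block, 3 with the trend removed and 5 with both (0 to 1 higher and 0 to 2 lower with a library left out). The 7 genes had at least 934 counts in each library. With 2 libraries a group, 60 of 100 simulated 2-fold changes were called and the others were missed.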
